A study of Homo sapiens with 16 samples.

Results

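The TMEM106 family comprises 3 human genes, TMEM106A, TMEM106B and TMEM106C, and all rows of the deposited expression tables that carry 1 of these 3 symbols were taken as its members. They gave 3 of the 61906 genes and 38 of the 251295 transcripts listed, of which 8 belonged to TMEM106A, 8 to TMEM106B and 22 to TMEM106C. The family was chosen with its response to the loss of HNRNPH1 in view, so its values under the knockdown are given as a description, without a test.

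The study depleted HNRNPH1, an RNA-binding protein that controls splicing, in 2 established human cell lines. HEK-293T, derived from embryonic kidney, expresses the large T antigen of SV40, while HT-1080 comes from a fibrosarcoma. Cells of each line received 20 nM of an siRNA against HNRNPH1 (siHNRNPH1) or of a negative control siRNA (siNegative), complexed with a lipid reagent, and their RNA was isolated after 48 h. Each of these 4 groups was measured in 3 short-read RNA-seq libraries from separate biological replicates and in 1 full-length cDNA (IsoSeq) pool of the replicates. No untransfected cells were included, so all 4 groups share the transfection.

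TMEM106 proteins are small glycoproteins that span the membrane once. TMEM106B sits in late endosomes and lysosomes, where it is involved in the acidification, size and transport of lysosomes. It is best known as a modifier of frontotemporal dementia caused by loss of progranulin, the product of GRN, and for the fibrils that its luminal domain forms in aged brain. TMEM106C is a close relative that is much less studied, and TMEM106A has been described on the surface of macrophages.

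The 3 genes shared part of the layout of their internal exons, as the exon lengths of the IsoSeq models showed. The internal exons of TMEM106B measured 219, 64, 160, 141, 50 and 54 bases in 35 models, and those of TMEM106C 215, 64, 160, 141, 50 and 54 bases in 9 models. The only TMEM106A model had internal exons of 168, 232, 64, 154, 141, 44 and 54 bases. A run of 5 consecutive exons that began with 64 bases, had 141 bases in the middle and ended with 54 bases was present in 1 TMEM106A, 42 TMEM106B and 9 TMEM106C models, and in 0 models at any other locus among the 299816 models of the 4 pools. The run was chosen from these genes, so its absence elsewhere is a description of these files.

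The TMEM106C models lay on the plus strand of chromosome 12 between 47963563 and 47969878 (GRCh38.p13). Their exon 1 was a short leader that ended at 47963633 in most models of each pool. The sequence around the first splice donor of the gene is shown because exon 1 ended there in 22 of 24, 17 of 25, 8 of 9 and 6 of 6 TMEM106C models of the 4 IsoSeq pools (HEK-293T siNegative, HEK-293T siHNRNPH1, HT-1080 siNegative and HT-1080 siHNRNPH1). It is from RefSeq (GRCh38.p14, plus strand, 5′ to 3′), with the donor motif GTAAGT in capitals.
TMEM106C first donor: cgccgaccgaagaggctgGTAAGTcctcaa
The motif GTAAGT, searched on the transcribed strand only, occurred 1 time in the first 50 transcribed bases of TMEM106C, 38 bases after the RefSeq start. Of 35116 RefSeq windows of the same length, 255 (0.726%) held it. All 3 family members had an entry in that table. Models that started at 47963596 had an exon 1 of the same 38 bases, ending at 47963633.

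HNRNPH1 itself was measured first as the check of the labels. In HEK-293T its level was 1107, 1105 and 1121 CPM (the expected count scaled by the library total) in the siNegative libraries and 234.1, 376 and 394 CPM in the siHNRNPH1 libraries. In HT-1080 it was 635, 606 and 617 CPM against 231, 231 and 228 CPM. The 2 groups did not overlap in either line, and the fall passed edgeR's quasi-likelihood test with Benjamini-Hochberg (BH) adjustment in both, with adjusted p = 0.0094 in HEK-293T. The HEK-293T call was lost without any 1 control library or without siHNRNPH1 replicate 2 (adjusted p up to 0.076, edgeR).

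Library totals were 107.7 to 121.0 M (mega) expected counts in HEK-293T and 27.3 to 32.7 M in HT-1080. The labelled lines matched their markers in part. Of 5 HEK-293T markers, NEFM, CKB, LIN28B and ZIC2 were higher in HEK-293T controls (NEFM 258 against 0.011 CPM), and NEFL was not (66.9 against 110 CPM). Of 6 HT-1080 markers, CD44, PLAU, MMP14, CAV1 and TGFBI were higher in HT-1080 controls (CD44 3037 against 1.68 CPM), and S100A4 was near 0 in both lines (0.454 against 0.350 CPM). The first siHNRNPH1 replicate of HEK-293T stood apart from the other libraries of its group, as its chi-square over degrees of freedom was 811 and 847 against replicates 2 and 3 and that between replicates 2 and 3 was 9.10. HEK-293T values that rest on it are therefore given with and without it.

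TMEM106C (ENSG00000134291.12) had the largest difference of the 3 genes. In HEK-293T it was measured at 156.2, 153.8 and 159.3 CPM in the siNegative libraries, and at 55.7, 41.3 and 43.2 CPM in the siHNRNPH1 libraries. In HT-1080 it was measured at 68.2, 79.8 and 67.5 CPM in the controls, and at 10.4, 9.92 and 10.6 CPM after siHNRNPH1. Every siHNRNPH1 library of each line was below every control library of that line, and the library that stood apart held the highest of the 3 HEK-293T values.

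The HEK-293T mean was 156 ± 2.77 CPM in the controls (SD, n = 3) and 46.7 ± 7.84 CPM after siHNRNPH1 (SD, n = 3). The knockdown mean was 29.9% of the control mean, a log2 fold change of -1.76 (SE 0.18), and 27.0% with a log2 fold change of -1.95 (SE 0.04) without replicate 1. In HT-1080 the means were 71.9 ± 6.91 and 10.3 ± 0.36 CPM (SD, n = 3 each), so that 14.4% remained, a log2 fold change of -2.87 (SE 0.08). The log2 fold change of HT-1080 minus that of HEK-293T was -1.18 (SE 0.21), and -0.97 without replicate 1. In bulk RNA, fewer cells that express a gene and less RNA per cell cannot be told apart.

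TMEM106B (ENSG00000106460.19) did not follow TMEM106C. The HEK-293T controls had 47.8, 46.6 and 48.4 CPM, and the siHNRNPH1 libraries had 23.8, 50.8 and 55.3 CPM. The low value belonged to the library that stood apart, and the other siHNRNPH1 libraries were both above all 3 controls. The log2 fold change was accordingly -0.18 (SE 0.30) with all libraries and 0.10 (SE 0.04) without replicate 1, a change of sign. In HT-1080 the controls had 56.9, 49.0 and 57.2 CPM and the siHNRNPH1 libraries 73.9, 69.4 and 71.5 CPM, without overlap, with means of 54.4 ± 4.64 and 71.6 ± 2.24 CPM (SD, n = 3 each) and a log2 fold change of 0.33 (SE 0.06). The difference between the lines was 0.44 (SE 0.30), and 0.18 (SE 0.08) without replicate 1.

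TMEM106A (ENSG00000184988.8) was close to the detection limit in HEK-293T. Its expected counts there were 16, 18 and 7 in the controls and 1, 10 and 3 after siHNRNPH1, and it did not pass edgeR's filter on low counts in that line. In HT-1080 the counts were 40, 41 and 31 in the controls and 59, 57 and 58 after siHNRNPH1, all siHNRNPH1 values above all controls. These correspond to 1.28 ± 0.23 and 1.93 ± 0.16 CPM (SD, n = 3 each) and a log2 fold change of 0.52 (SE 0.18).

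No call is given for the members under the knockdown, since the family was chosen on this contrast. As background, 10% of all genes tested in HEK-293T were past a BH-adjusted p of 0.05 in edgeR's quasi-likelihood test, 4.88% lower and 5.12% higher. In HT-1080, 65.3% of all genes were called, 32.6% lower and 32.7% higher. The log2 fold change of TMEM106C in HEK-293T stayed between -1.67 and -1.95 with each replicate left out. Over all genes tested the median log2 fold change was 0.02 for HEK-293T and 0.01 for HT-1080.

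**Figure D1:**
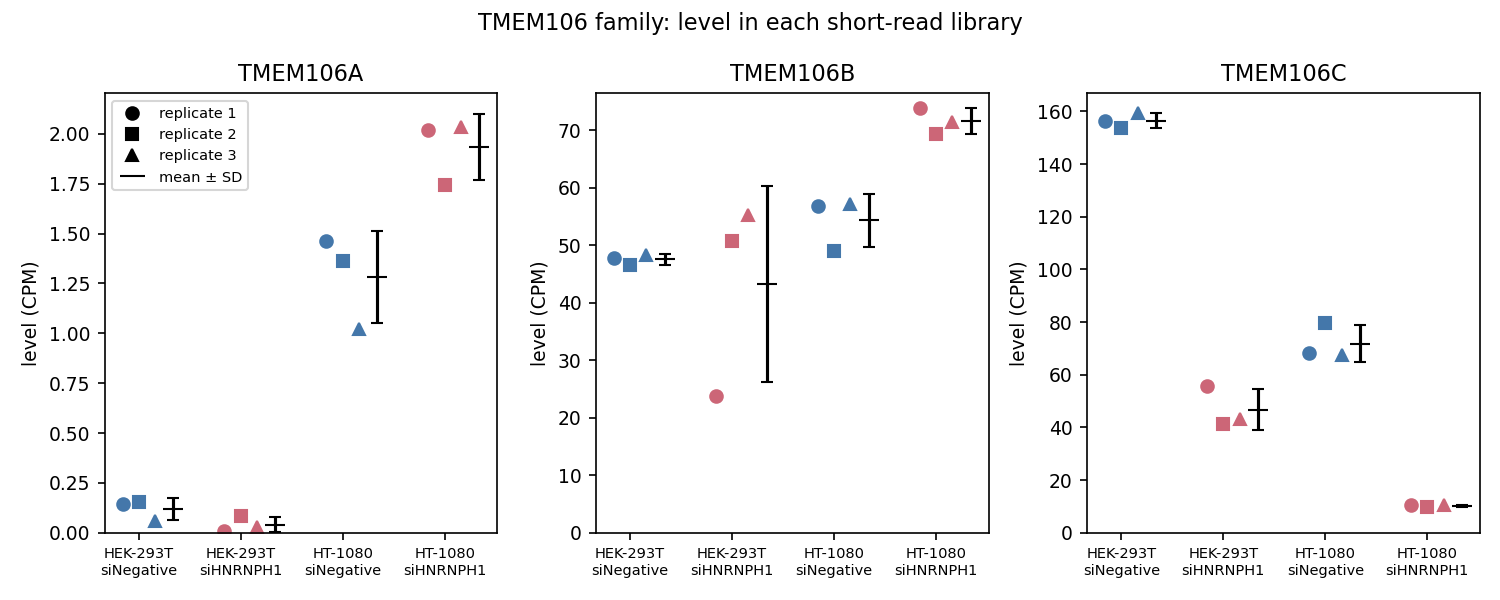
Level of each family member in CPM (vertical axes, 1 scale per gene) in the 12 short-read libraries, grouped by cell line and siRNA. Symbols are replicates and bars are mean ± SD. TMEM106C siHNRNPH1 libraries lie below all controls of their line, TMEM106B is higher after siHNRNPH1 in HT-1080, and the low TMEM106B value of 23.8 CPM in HEK-293T is replicate 1.

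The difference between the control libraries of the lines was not the contrast by which the family was chosen. These libraries do enter that contrast, and the family was chosen with earlier results of these data known. TMEM106C was lower in HT-1080 than in HEK-293T, by a log2 fold change of -0.87 (SE 0.07, BH-adjusted p = 7.49e-07, edgeR's quasi-likelihood test). TMEM106B was higher in HT-1080, with a log2 fold change of 0.45 (SE 0.06, adjusted p = 4.89e-05, edgeR). TMEM106A was also higher in HT-1080, with a log2 fold change of 3.67 (SE 0.33), and its control mean was 0.119 CPM in HEK-293T. It passed the low-count filter only through its HT-1080 counts (40, 41 and 31, against 16, 18 and 7 in HEK-293T controls), so no p is given. Of all genes, 86.6% were called between the control lines and 45.8% were lower in HT-1080. Calls for TMEM106B and TMEM106C are thus near the background. Cell line, depth and sequencing run cannot be told apart in this comparison.

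Most of TMEM106C was assigned by the authors' transcript estimates to a pair of transcripts, ENST00000256686.10 and ENST00000429772.7. The deposited tables give no exon positions for these identifiers, so they could not be matched to the IsoSeq models described further on. In the control libraries ENST00000256686.10 held 41.7 ± 0.71% of the gene's counts in HEK-293T and 50.3 ± 1.31% in HT-1080 (SD, n = 3 each), and ENST00000429772.7 held 36.9 ± 0.70% and 29.7 ± 3.63%. Together they made up 78.6% of the gene in HEK-293T controls and 80.0% in HT-1080 controls.

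The summed level of this pair was 121, 121 and 127 CPM in HEK-293T controls and 44.2, 24.0 and 25.2 CPM after siHNRNPH1. In HT-1080 it was 52.9, 65.5 and 54.3 CPM against 5.67, 4.12 and 4.34 CPM. What remained of the pair was 25.3% in HEK-293T (20.0% without replicate 1) and 8.18% in HT-1080. The other 20 transcripts together kept more of their control level, with 33.5 CPM in controls and 15.6 CPM after siHNRNPH1 in HEK-293T, or 46.5% (52.6% without replicate 1), and with 14.3 and 5.61 CPM in HT-1080, or 39.2%.

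The pair's share of the gene moved with these levels. It was 77.5, 78.4 and 79.9% in HEK-293T controls and 79.4, 58.1 and 58.4% after siHNRNPH1. Replicate 1 lay among the controls, and replicates 2 and 3 were below all of them. In HT-1080 the share was 77.5, 82.1 and 80.4% in controls and 54.5, 41.5 and 40.9% after siHNRNPH1, without overlap.

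ENST00000256686.10 was measured at 64.6, 63.4 and 67.7 CPM in HEK-293T controls and 25.5, 14.1 and 14.2 CPM after siHNRNPH1. In HT-1080 it was measured at 35.2, 39.1 and 33.9 CPM against 3.32, 3.53 and 3.59 CPM. The transcript thus kept 27.5% of the control mean in HEK-293T (21.7% without replicate 1) and 9.64% in HT-1080. Its level lay below the control range in all 6 siHNRNPH1 libraries, whereas its share was below the controls in all 3 HT-1080 libraries but only in replicates 2 and 3 of HEK-293T, at 45.8, 34.3 and 32.9%.

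ENST00000429772.7 was measured at 56.4, 57.2 and 59.6 CPM in HEK-293T controls and 18.7, 9.85 and 11 CPM after siHNRNPH1. In HT-1080 it was measured at 17.6, 26.4 and 20.4 CPM against 2.35, 0.586 and 0.749 CPM. It kept 22.8% of the control mean in HEK-293T (18.1% without replicate 1) and 5.73% in HT-1080. ENST00000429772.7 was the only transcript with a share below all controls in both lines. After siHNRNPH1 this share was 27.6% in HEK-293T (24.7% without replicate 1) and 11.9% in HT-1080.

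The smaller transcripts differed from the pair and from one another. ENST00000552561.5 was measured at 14.2, 14.1 and 12.5 CPM in HEK-293T controls and 0.164, 2.49 and 0.830 CPM after siHNRNPH1. This was 8.54% of the control mean, and 12.2% without replicate 1. In HT-1080 the same transcript kept 18.7%, and its share was 8.26, 15.4 and 15.2% after siHNRNPH1 against 9.91, 10.5 and 9.35% in controls, so the groups overlapped.

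Of the 4 transcripts that reached 5% of the gene in controls of either line, ENST00000551305.5 kept the largest part of its level. It retained 59.0% of its control mean in HEK-293T (72.8% without replicate 1) and 54.0% in HT-1080. Its share was 6.45, 6.26 and 5.97% in HEK-293T controls and 5.52, 15.4 and 18.1% after siHNRNPH1, and 2.45, 1.62 and 1.64% against 9.19, 4.14 and 7.82% in HT-1080.

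ENST00000449758.6 was listed at 0 in all HT-1080 controls and at 1.05, 1.48 and 1.42 CPM after siHNRNPH1, where it made up 10.1, 14.9 and 13.3% of the gene. In HEK-293T it was listed at 0, 0 and 0.332 CPM in controls and at 0, 1.26 and 1.63 CPM after siHNRNPH1. It was thus above the controls in 5 of 6 siHNRNPH1 libraries, with replicate 1 of HEK-293T at 0. RSEM divides reads among transcripts that share exons, so a listed 0 can also be an outcome of that division.

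Of the 22 TMEM106C transcripts, 16 passed the filter on low counts in HEK-293T. Of these, 8 were below all controls in CPM, 1 was above and 7 overlapped, where 16.5% and 14.4% of all transcripts past the filter were below and above. In HT-1080, 10 passed, of which 7 were below, 1 was above and 2 overlapped, against 19% below and 20.9% above among all transcripts. The 1 above was ENST00000449758.6, at 0 in all HT-1080 controls, which passed the filter through the siHNRNPH1 libraries alone. Without replicate 1 the HEK-293T counts were 9 below and 3 above. The transcripts that passed kept a median of 63.7% of their control mean in HEK-293T, between 8.54 and 872%, and a median of 26.9% in HT-1080, between 5.73 and 54.0% where a control level was above 0. These counts use the contrast by which the family was chosen and nothing is read from them.

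**Figure D2:**
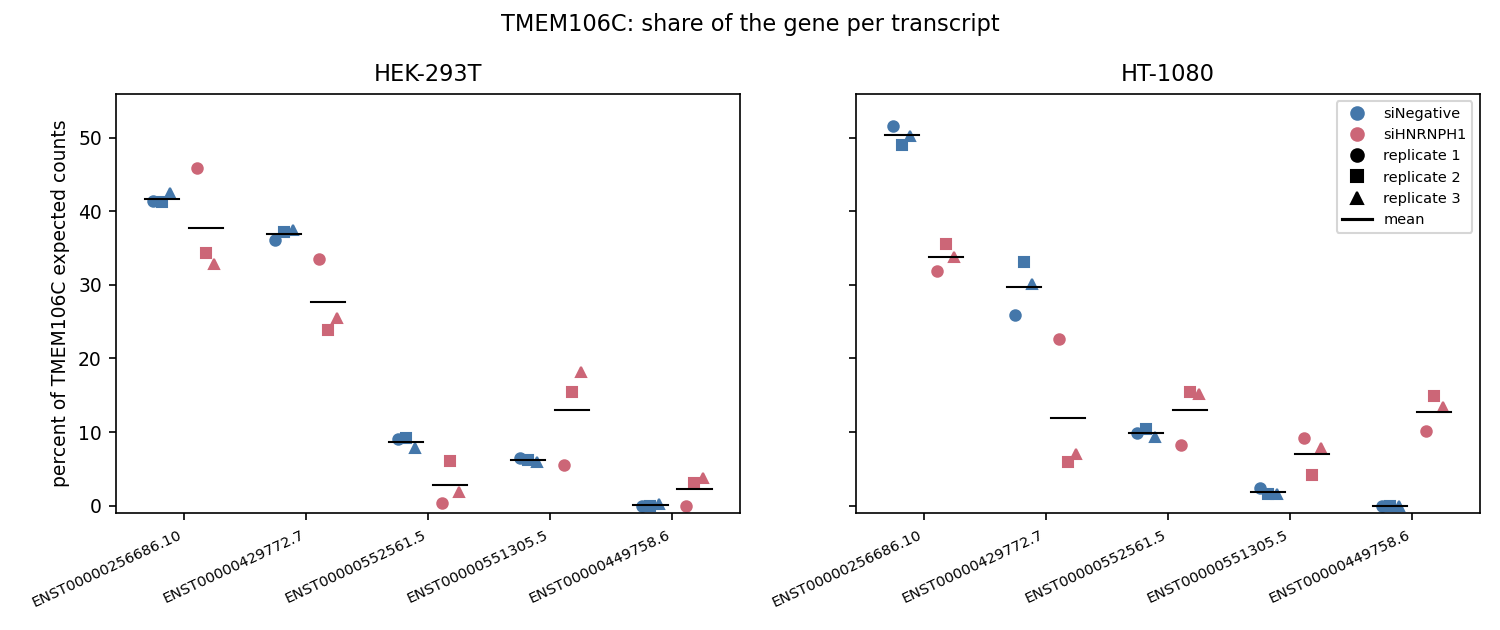
Share of TMEM106C expected counts (percent, vertical axis) held by the 5 transcripts that reached 5% of the gene in any group, in HEK-293T and HT-1080. Symbols are replicates and lines are means. The first pair holds less of the gene after siHNRNPH1 in HT-1080 (45.6% in all, against 80.0%), and ENST00000449758.6 is at 0 in all HT-1080 controls.

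TMEM106B was dominated by 1 transcript. ENST00000396668.8 held 86.3% of the gene's counts in HEK-293T controls and 87.3% after siHNRNPH1, and 78.3% and 74.0% in HT-1080, with overlapping groups in both lines. In HT-1080 its level was 43.6, 40.2 and 43.7 CPM in controls and 56.4, 50.5 and 52.1 CPM after siHNRNPH1, without overlap. ENST00000462754.1 held 9.71% and 9.39% in HEK-293T and 10.9% and 11.5% in HT-1080, and ENST00000396667.7 held 1.18% and 1.97% in HEK-293T and 5.13% and 7.62% in HT-1080. Of the 5 TMEM106B transcripts that passed the filter in HT-1080, 4 were above all controls, against 20.9% of all transcripts past the filter. In HEK-293T 1 of 5 was below and 4 overlapped, against 16.5% below among all transcripts. The 5 that passed in HT-1080 stood at 125 to 193% of their control means.

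For TMEM106A, 1 transcript passed the filter, and only in HT-1080. ENST00000612339.4 was measured at 1.11, 1.10 and 0.718 CPM in controls and 1.91, 1.5 and 1.80 CPM after siHNRNPH1. Its share of the gene was 75.7% in controls and 89.7% after siHNRNPH1, from fewer than 60 counts per library. The other 7 transcripts of TMEM106A rested on too few counts for their shares to be read.

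In the control libraries, shares of 11 transcripts of the family were compared between the lines by exact two-sided permutation tests of 3 against 3 libraries. The smallest p that this design allows is 0.1, and 7 of the 11 transcripts reached it (BH-adjusted p = 0.157, exact permutation). These 7 were the 3 TMEM106B and the 4 TMEM106C transcripts tested. The largest differences were for ENST00000256686.10, with 8.60 percentage points more in HT-1080, and for ENST00000396668.8, with a difference of -7.97 percentage points. No share could pass the threshold in this design.

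The IsoSeq files list the transcript models found in each pool, without read counts, so every model counts once and 1 pool per group allows no replicate error. TMEM106C had 24 models in the HEK-293T siNegative pool, 25 in the HEK-293T siHNRNPH1 pool, 9 in the HT-1080 siNegative pool and 6 in the HT-1080 siHNRNPH1 pool. The pools held 64705, 94847, 72186 and 68078 models in all. TMEM106B, on chromosome 7 between 12211213 and 12237258, had 6, 12, 10 and 16 models in the same order. TMEM106A, on chromosome 17 between 43211875 and 43220035, had 1 model in the HT-1080 siNegative pool and 0 in the others, which allows no statement on its structure after siHNRNPH1.

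TMEM106C models differed mainly in how many introns they kept. The gene had 7 introns in these models, and a model that ran through an intron without a junction was counted as retaining it. In HEK-293T, 19 of 24 siNegative models (79.2%, exact 95% interval 57.8 to 92.9%) and 21 of 25 siHNRNPH1 models (84.0%, 63.9 to 95.5%) retained at least 1 intron. In HT-1080 these were 5 of 9 models (55.6%, 21.2 to 86.3%) and 2 of 6 models (33.3%, 4.33 to 77.7%). The siRNA groups of each line overlapped in their intervals. Over all loci with introns, 20.2, 22.3, 14.6 and 14.4% of models retained an intron in the same 4 pools. The TMEM106C share lay above the pool's share in each. The intervals cover counting of models only. Models of 1 gene are not independent draws, so the intervals give no test against these shares.

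In HEK-293T the introns retained most often were 3 and 4, and in the HT-1080 siNegative pool it was intron 6, in 5 of 9 models (55.6%). Intron 3, which is 492 bases long (47965346 to 47965837), was retained in 75.0 and 76.0% of HEK-293T models and in 33.3% of HT-1080 models of both pools. Intron 4, which at 91 bases (47965998 to 47966088) was the shortest of the gene, was retained in 70.8, 72.0, 33.3 and 33.3%. Intron 1 (47963634 to 47964208) was retained in 0 models of any pool, a count that allows a share of up to 14.8% in the HEK-293T siNegative pool by the exact interval and of up to 45.9% in the HT-1080 siHNRNPH1 pool. Models that kept at least 3 introns numbered 16, 17, 3 and 2, and models with all 7 introns spliced numbered 5, 3, 4 and 4.

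**Figure D3:**
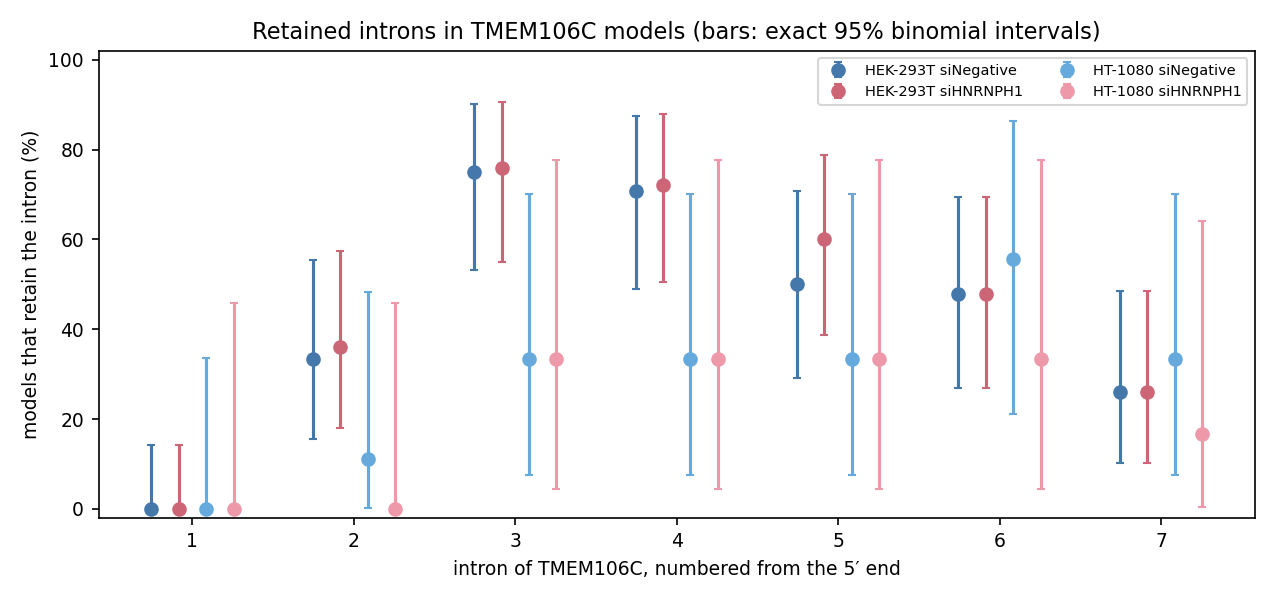
Share of TMEM106C IsoSeq models that retain each of the 7 introns (percent, vertical axis), by pool. Points are shares among the models that span the intron and bars are exact 95% binomial intervals. Introns 3 and 4 reach 70.8 to 76.0% in HEK-293T, intron 1 is at 0 in all pools, and the siHNRNPH1 and siNegative intervals of a line overlap at every intron.

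**Figure D4:**
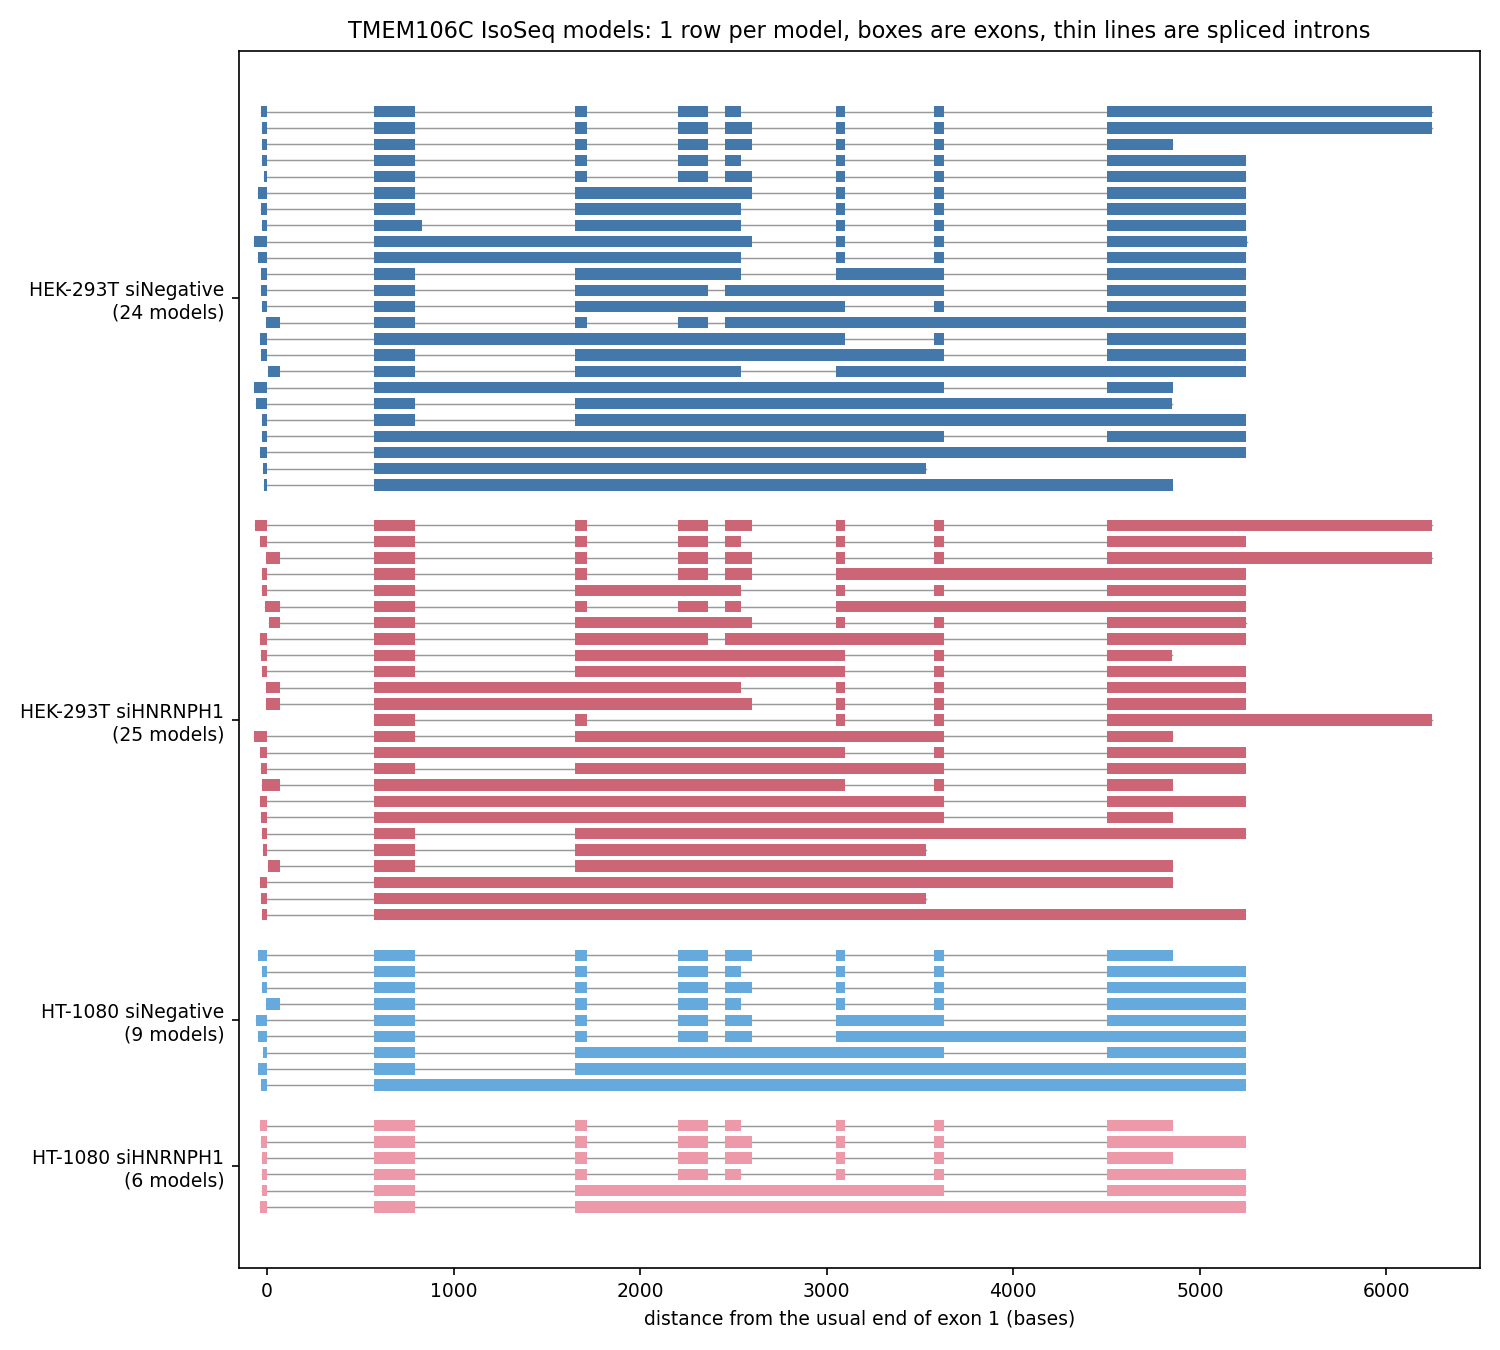
TMEM106C IsoSeq models of the 4 pools, 1 per row, drawn to scale by distance in bases from the usual end of exon 1 (horizontal axis). Boxes are exons and thin lines are spliced introns. The 24 and 25 HEK-293T models contain long boxes where introns are retained, and the HT-1080 pools hold 9 and 6 models.

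Other alternatives were few. Exon 5 had a long form of 141 bases (47966089 to 47966229) and a short form of 84 bases, which differ by 57 bases (47966173 to 47966229), a multiple of 3. The junction of the short form was carried by 7, 4, 2 and 2 models in the 4 pools and that of the long form by 5, 5, 4 and 2. Among models with all introns spliced, the long and short forms numbered 3 and 2 in the HEK-293T siNegative pool, 2 and 1 in its siHNRNPH1 pool, and 2 of each in both HT-1080 pools. A second donor of exon 1, at 47963704 in place of 47963633, ended exon 1 in 2 of 24 HEK-293T siNegative models (8.33%, 1.03 to 27.0%) and 7 of 24 siHNRNPH1 models that span it (29.2%, 12.6 to 51.1%), with overlapping intervals, and in 1 and 0 HT-1080 models. In the HEK-293T siHNRNPH1 pool, 1 model joined exon 3 to exon 6.

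TMEM106C models ended at 4 places. The most common end, at 47968877, was used by 17, 14, 8 and 4 models. The end at 47968486 was used by 4, 6, 1 and 2, the distant end at 47969875 by 2, 3, 0 and 0, and an end before exon 7, at 47967164, by 1, 2, 0 and 0. No end was specific to siHNRNPH1, and the number of HT-1080 models does not show whether the 2 rare ends are absent there.

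Counted against the 6 introns after the first in the most common 8-exon TMEM106B structure, 1 of 6 HEK-293T siNegative models retained an intron and 0 models of the other pools did, where the exact intervals reach 26.5, 30.8 and 20.6%. In the HT-1080 siNegative pool 1 model had an exon of 640 bases in place of the 160-base exon, and in the HT-1080 siHNRNPH1 pool 1 model had the same stretch split into exons of 356 and 160 bases. The longer exon thus ran through a stretch that the other model spliced out, which is not in the count above. Exon 1 ended at 12211425 in 5, 7, 7 and 10 models and at 12211547 in 1, 5, 3 and 6. An additional exon of 194 bases (chromosome 7, 12214201 to 12214394) was seen in 2 of 10 HT-1080 siNegative models (20.0%, 2.52 to 55.6%) and 4 of 16 HT-1080 siHNRNPH1 models (25%, 7.27 to 52.4%). It was in 0 of 6 and 0 of 12 HEK-293T models, which allows up to 45.9% and 26.5%.

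Proteins that act with TMEM106B in the endolysosomal system formed the first list of related genes. In HT-1080, 6 of the 9 partners tested rose, 0 fell and 3 did not pass, with a median log2 fold change of 0.26, where 32.7% of all genes were called higher and 32.6% lower. The 0 was the same at an unadjusted p under 0.05 and with DESeq2. TMEM192, a lysosomal membrane protein, rose from 20.6, 20.1 and 20.6 CPM to 41.7, 40.3 and 42.6 CPM, a log2 fold change of 0.96 (SE 0.05, BH-adjusted p = 2.16e-07, edgeR). GRN, which encodes progranulin, rose by 0.40 (adjusted p = 3.92e-05, edgeR), and PSAP, which encodes the saposin precursor and travels with progranulin, rose by 0.33 (adjusted p = 9.56e-05, edgeR).

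CTSD, the protease cathepsin D, rose by 0.33 in HT-1080 (adjusted p = 7.79e-05, edgeR). ATP6AP1, an accessory subunit of the vacuolar ATPase that binds TMEM106B, rose by 0.26 (adjusted p = 0.00028, edgeR), and AP2M1, a subunit of the clathrin adaptor AP-2, rose by 0.13 (adjusted p = 0.0322, edgeR). Values for those that did not pass were 0.07 for CLTC, the clathrin heavy chain, 0.07 for SORT1, the sortilin receptor of progranulin, and -0.04 for CHMP2B, an ESCRT-III subunit. MAP6, a microtubule protein that binds TMEM106B, was not tested in HT-1080, where its control mean was 0.034 CPM.

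In HEK-293T, 1 of the 10 partners passed, against 10% of all genes. MAP6 rose from 0.675, 0.663 and 0.479 CPM to 1.35, 1.08 and 1.39 CPM, a log2 fold change of 1.05 (SE 0.22, adjusted p = 0.0372, edgeR). The call for MAP6 was lost when any 1 control library or replicate 2 or 3 of siHNRNPH1 was left out. With all libraries, the other log2 fold changes were 0.57 for GRN, 0.53 for CTSD, 0.36 for AP2M1, 0.32 for PSAP and 0.03 for TMEM192. They were -0.00 for CHMP2B, -0.10 for ATP6AP1, -0.29 for SORT1 and -0.51 for CLTC, with a list median of 0.18. When replicate 1 was left out they were 0.21 for GRN, 0.13 for CTSD, -0.01 for AP2M1, 0.19 for PSAP and 0.19 for TMEM192. In the same fit they were 0.11 for CHMP2B, -0.24 for ATP6AP1, -0.11 for SORT1 and -0.21 for CLTC. Without replicate 1, 6 partners were called higher and 3 lower, in a fit that called 61.8% of all genes, with a list median of 0.12.

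The vacuolar ATPase, the proton pump that acidifies lysosomes and the machinery to which TMEM106B binds, did not move one way. Of 18 subunits tested in HT-1080, 5 rose, 5 fell and 8 did not pass, with a median log2 fold change of 0.01, where 65.3% of all genes were called, 32.7% higher and 32.6% lower. In HEK-293T 2 of 19 fell, 0 rose (1 at an unadjusted p under 0.05 and 1 with DESeq2) and 17 did not pass, with a median of 0.03, against 4.88% of all genes called lower and 5.12% higher. ATP6V1G1, a subunit of the peripheral stalk, fell in both lines, from 99.0, 96.9 and 104.6 CPM to 41.6, 37.3 and 37.2 CPM in HEK-293T and from 46.6, 50.3 and 47.0 CPM to 20.9, 22.1 and 20.5 CPM in HT-1080. The log2 fold changes were -1.40 (adjusted p = 0.0061, edgeR) and -1.25 (adjusted p = 1.11e-07, edgeR), and no siHNRNPH1 library overlapped with a control.

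The other subunit called in HEK-293T was ATP6V1C2, with a log2 fold change of -1.07 (adjusted p = 0.027, edgeR), which had 0 or 1 count per library in HT-1080. In HT-1080 ATP6V0E2, a small membrane subunit named here after its values were seen, fell from 23.5, 25.3 and 24.1 CPM to 11.4, 12.8 and 12.2 CPM (log2 fold change -1.07, adjusted p = 6.68e-07, edgeR). Without replicate 1, 4 subunits were called higher and 11 lower in HEK-293T, in a fit that called 61.8% of all genes, with a median of -0.13.

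Another list, of 35 genes, held lysosomal enzymes and membrane proteins and also transcription factors that act on lysosomal genes, such as TFEB and TFE3. In HT-1080, 21 rose, 8 fell and 6 did not pass, with a median log2 fold change of 0.18, against 32.7% of all genes called higher and 32.6% lower. Examples named after their values were seen are GAA, which encodes the acid alpha-glucosidase and rose by 0.97 (adjusted p = 2.31e-07, edgeR), and TFEB, the transcription factor that switches on lysosomal genes, which rose by 0.88 (adjusted p = 3.77e-06, edgeR).

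Among the 8 lysosomal genes that fell in HT-1080 were GLA, the alpha-galactosidase A gene, at -0.47 (adjusted p = 6.77e-05, edgeR) and MCOLN1, a lysosomal calcium channel, at -0.45 (adjusted p = 0.00019, edgeR), both named after their values were seen. HEXA, which encodes the alpha subunit of beta-hexosaminidase, was the lysosomal gene called in the same direction in both lines. It fell from 93.1, 93.5 and 96.1 CPM to 49.9, 47.0 and 47.3 CPM in HEK-293T, a log2 fold change of -1.0 (adjusted p = 0.0094, edgeR). In HT-1080 its log2 fold change was only -0.13 (adjusted p = 0.035, edgeR), and that call was lost with library size alone as the scaling and without several single libraries.

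In HEK-293T 1 of the 35 lysosomal genes fell (HEXA), 0 rose (4 at an unadjusted p under 0.05 and 3 with DESeq2) and 34 did not pass, with a median of 0.02, where 10% of all genes were called, 4.88% lower and 5.12% higher. Without replicate 1, 12 were called higher and 16 lower, where 61.8% of all genes were called, with a median of -0.07. All HEK-293T calls for the 3 lists were lost when any 1 control library was left out, with adjusted p up to 0.069 for ATP6V1G1 and 0.085 for HEXA over the alternatives (edgeR). CTSD is in both the partner and the lysosomal list and ATP6AP1 in both the partner and the vacuolar ATPase list.

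**Figure D5:**
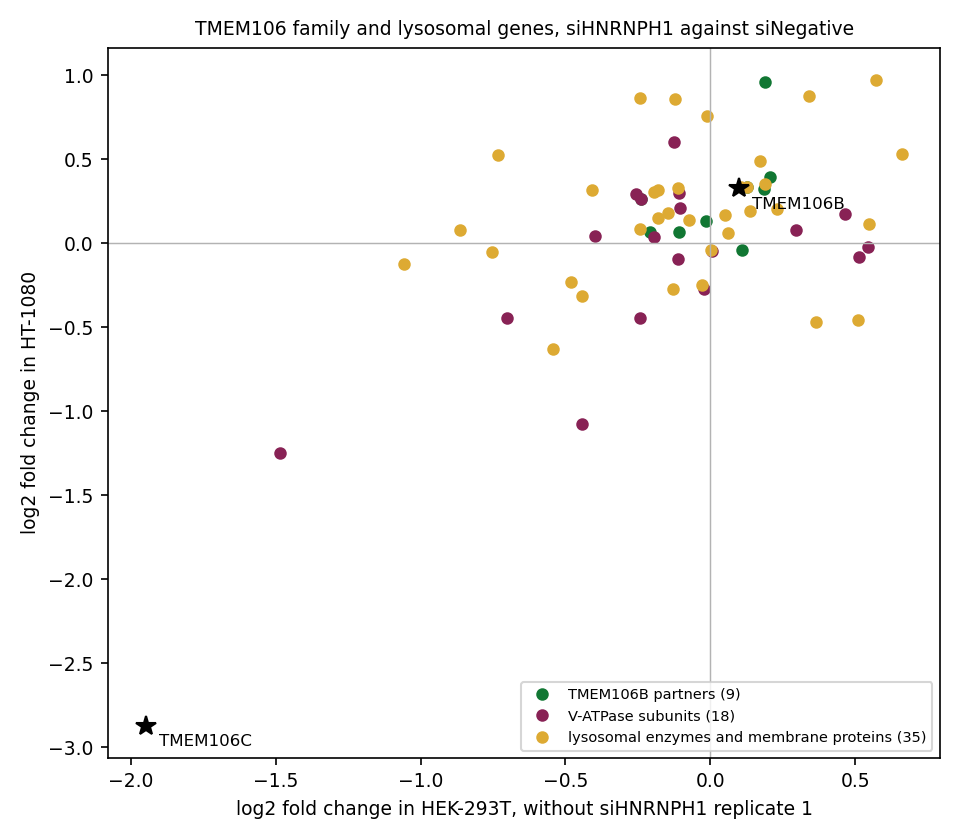
Log2 fold change after siHNRNPH1 in HT-1080 (vertical axis) against that in HEK-293T without siHNRNPH1 replicate 1 (horizontal axis) for the 3 gene lists, with TMEM106B and TMEM106C as stars. TMEM106C lies at -1.95 and -2.87, apart from the listed genes, and TMEM106B lies at 0.10 and 0.33.

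The genes next to TMEM106C that could be judged did not share its difference, which were VDR in both lines and COL2A1 in HEK-293T only. VDR, the vitamin D receptor gene, was measured at 10.4 CPM in HEK-293T controls and 12.8 CPM after siHNRNPH1 (log2 fold change 0.27, adjusted p = 0.314, edgeR). Without replicate 1 its log2 fold change there was 0.38 (adjusted p = 9.49e-06, edgeR), in a fit that called 61.8% of all genes. VDR rose from 96.7 to 144 CPM in HT-1080 (log2 fold change 0.51). COL2A1, a fibrillar collagen gene, was measured at 43.6 and 52.3 CPM in HEK-293T (log2 fold change 0.24, adjusted p = 0.443, edgeR). Its log2 fold change was 0.05 without replicate 1, and its level was 0.034 CPM in HT-1080 controls. LINC02354 was listed at 0 in all libraries.

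The 5 genes whose levels were most like those of TMEM106C over the 12 libraries were BTG3, CISD2, USP39, GGCT and ENSG00000280239, which has no symbol. Likeness was measured as Pearson's r of log2(CPM + 1), centred per line, with a pseudocount of 1, among 12172 genes whose mean count reached 50 in both lines. The values were 0.996 for BTG3, 0.995 for CISD2, 0.994 for USP39, 0.994 for ENSG00000280239 and 0.993 for GGCT. These genes share the libraries and the siRNA groups, and 182 genes had an r above 0.95, so the order within this group is a description only. The log2 fold change of GGCT was -1.75 for HEK-293T and -3.56 for HT-1080, and that of BTG3 was -1.02 and -1.52.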

How the data were processed

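For the short-read libraries the authors deposited RSEM expected counts of each transcript, in 1 table per cell line, on GRCh38.p13 per the submitters' processing notes. Aligner, annotation release and strandedness are not given in the sources used here. IsoSeq files list exon positions of models without counts. Every value column was matched to a sample by the column name in its label, and 0 were unmatched. These expected counts were then added up by gene and rounded. CPM are unrounded counts scaled to the library total.

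Genes past edgeR's low-count filter were scaled by TMM, and edgeR's quasi-likelihood test was applied (edgeR 4.0.16, limma 3.58.1 and DESeq2 1.42.0 under R 4.3.3; two-sided, robust), with BH adjustment over all genes tested, per line on 6 libraries, on the 6 controls for the line comparison, and on all 12 for the line by siRNA interaction. The threshold was 0.05. Standard errors were taken from the F statistic. Transcript shares are percentages of a gene's summed expected counts. Binomial intervals are exact Clopper-Pearson at 95%, for counting error only. Junctions were matched exactly, with a match within 5 bases as an alternative, and model ends were clustered within 10 bases. The gene test was checked on simulated counts. Sequences are from RefSeq GRCh38.p14, which served otherwise for names and gene order only.

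The members, gene lists and alternatives were chosen with earlier results of these data known. Named were the 3 members, HNRNPH1, all partners, per other list and direction up to 3 genes called alike in both lines, then up to 2 called in opposite directions (none was), transcripts reaching 5% of their gene in a group mean, the nearest 2 genes on each side of TMEM106C (1 of these, LOC105369752, was not matched) and the 5 genes most like it. Other names are marked in the text. Alternatives were other scalings, no low-count filter, DESeq2, a replicate block, 1 fit over all libraries, each replicate left out, transcripts under an expected count of 10 left out, and stricter or wider rules for IsoSeq models.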

Additional observations from a re-analysis of the deposited data

Results flagged for a closer look

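For 5 of the genes named from the lists of partners, vacuolar ATPase subunits and lysosomal genes the effect of siHNRNPH1 differed between the cell lines in edgeR's line by siRNA interaction over 12 libraries, in which 19% of all genes were called. The members and the genes most like TMEM106C were chosen on the siRNA contrast and are not tested here. GLA, MCOLN1 and ATP6V0E2 were named after their values in this contrast were seen, and HEXA for its calls in both lines. The adjusted p-values of these genes are therefore a description and no independent test of a difference between the lines. The values are the log2 fold change of HT-1080 minus that of HEK-293T, with BH-adjusted p-values from edgeR. TMEM192 differed by 0.86 (adjusted p = 0.0057), and by 0.72 without HEK-293T siHNRNPH1 replicate 1. Its levels were higher after siHNRNPH1 in 3 of 3 HT-1080 libraries. In HEK-293T it was at 36.0, 54.7 and 57.5 CPM in siHNRNPH1 replicates 1, 2 and 3. The HEK-293T controls had 45.2, 47.3 and 49.5 CPM, so replicates 2 and 3 were above all of them. HEXA differed by 0.80 (adjusted p = 0.0014), with -1.0 in HEK-293T and -0.13 in HT-1080.

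GLA differed by -1.14 (adjusted p = 0.0053) and MCOLN1 by -1.37 (adjusted p = 0.0075). For both, 3 of 3 HEK-293T siHNRNPH1 libraries were above all controls and 3 of 3 HT-1080 siHNRNPH1 libraries below. Neither was called in HEK-293T (adjusted p = 0.119 for GLA and 0.097 for MCOLN1, edgeR), where replicate 1 held the highest level of both. Without that library the line differences were -0.89 for GLA and -1.02 for MCOLN1. ATP6V0E2 differed by -1.13 (adjusted p = 0.043), and by -0.68 without HEK-293T siHNRNPH1 replicate 1. Its adjusted p ranged up to 0.102 over the alternatives, and those of the other 4 genes stayed at or below 0.0259. The libraries of the lines also differed in depth, whose part was not tested.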

How the results depend on the processing

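The number of genes called in HEK-293T, 1997, was unstable. It was 1302 with no low-count filter, 3461 with DESeq2, 4550 in 1 fit over all 12 libraries, and 0 to 12557 with each replicate left out. It was 0 without siNegative replicate 2 or 3 (3517 and 3486 at an unadjusted p under 0.05) and 12557 without siHNRNPH1 replicate 1. With the replicate number as a block it was 0 (4169 unadjusted). Same-numbered libraries correlated at 0.02 to 0.15 in their deviations, so the numbers are not taken to pair them, and cross-line pairing was not assumed.

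Among HEK-293T lists, partners went from 1 to 0 with no filter, 0 with the block, 2 in the 12-library fit and 0 to 9 with replicates left out. V-ATPase subunits went from 2 to 0 with the block and 0 to 15, and lysosomal genes from 1 to 2 with library size alone, 6 with DESeq2, 0 with the block, 8 in the 12-library fit and 0 to 28. The block left 1, 2 and 8 genes of these lists at an unadjusted p under 0.05. In HT-1080 the 12-library fit gave 6237 genes, 1 partner, 3 V-ATPase and 12 lysosomal genes in place of 10538, 6, 10 and 29. The block gave 10504.

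TMEM106C in HEK-293T was -1.95 without siHNRNPH1 replicate 1 and as far as -1.67 without another replicate, and its line difference was -0.97 to -1.30. TMEM106B in HEK-293T ran from -0.39 to 0.10. TMEM106A in HT-1080 was 0.38 without siNegative replicate 3 and up to 0.62 without another, and its line difference, 1.98, was 1.56 to 3.01. The control-line comparisons of TMEM106B and TMEM106C kept direction and call, and that of TMEM106A kept its direction. The junction of intron 2 was in 100% of HT-1080 siNegative models with at least 3 exons, against 88.9%.

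Some values changed sign. With replicates left out, SORT1 in HT-1080 ranged from -0.030 to 0.16 and CLTC from -0.032 to 0.13, and in HEK-293T CHMP2B from -0.077 to 0.11, TMEM192 from -0.088 to 0.19, AP2M1 from -0.014 to 0.52 and ATP6V0E2 from -0.44 to 0.15. With library size alone CHMP2B was 0.028 in HEK-293T and 0.025 in HT-1080. In the 12-library fit CHMP2B was 0.054 and ATP6V0E2 0.042 in HEK-293T. The causes were not tested. Low counts limit TMEM106A, and IsoSeq model counts are too few to tell siRNA groups apart.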
